A study of Mus musculus with 42 samples.

Results

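The core genes of the mTOR pathway were named by symbol, not by any measured value: Mtor, Rptor, Mlst8, Rictor, Tsc1, Tsc2, Rheb, Akt1 and Rps6kb1. Of these 9 genes, 8 were measured, by 22 probe sets, out of 18193 genes and 45037 probe sets on the array. Rps6kb1, which encodes the S6 kinase downstream of mTOR, was not analysed here because the annotation used gives it no probe set. RNA from 42 samples was hybridised to whole-genome Affymetrix mouse arrays, which read short stretches near the 3′ end of each transcript. Embryos of Fmr1 knockout (KO) and wild-type (WT) C57BL/6 mice were taken 17 to 18 days after conception, and all samples were untreated. From them came KO and WT hippocampal neuronal cultures (5 arrays each) and KO and WT cortical neuronal cultures (5 each), all kept for 14 days in vitro, and uncultured KO and WT hippocampus (6 each) and KO and WT cortex (5 each), called primary hippocampus and primary cortex. The knockout is constitutive, not limited to neurons, and each array holds RNA from pooled littermates. The mouse ID in the labels is read here as the litter, so that 10 litters gave an array in all 4 systems and 12 litters took part in all. The 5 KO litters in all systems carry the IDs 2037, 2038, 2221, 2620 and 4236, and the 5 WT litters 2236, 2643, 2644, 3569 and NT. The label NT is not a number and its meaning is not given, so that its arrays are only assumed to share a litter. Because cultures and tissue differ in age, composition and handling at once, those factors cannot be told apart in a culture against tissue comparison.

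mTOR is a protein kinase that matches cell growth and protein synthesis to nutrients, energy and growth factors. It works in complexes named mTORC1 and mTORC2: mLST8 (Mlst8) is part of both, raptor (Rptor) presents substrates to mTORC1, and rictor (Rictor) defines mTORC2. The small GTPase Rheb switches mTORC1 on, and the TSC complex, built on tuberin (Tsc2) with hamartin (Tsc1), turns Rheb off. The kinase AKT1 is phosphorylated by mTORC2 and in turn inhibits the TSC complex. In neurons the pathway is known for its part in dendrite growth and in the protein synthesis behind lasting synaptic change, and FMRP, the protein missing in fragile X syndrome, is an RNA-binding protein that holds back the translation of many synaptic mRNAs. The arrays measured transcripts only, not the phosphorylation by which the pathway signals.

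Promoter sequence is printed for the 4 members whose window of 250 bases before the RefSeq start lies outside the annotated gene, since all 4 genes differed between cultures and tissue and can be set side by side. The windows are from the GRCm38.p6 assembly, written 5′ to 3′ on the gene's strand, and capitals mark matches to a GC box (GGGCGG), an E-box (CACGTG) or a CCAAT box (CCAAT) on either strand. Mtor lies at chr4:148448582-148557685 (plus strand) and its window at chr4:148448332-148448581. Rheb lies at chr5:24802823-24842361 (minus) and its window at chr5:24842362-24842611. Rptor lies at chr11:119602905-119899591 (plus) and its window at chr11:119602655-119602904. Akt1 lies at chr12:112653821-112674884 (minus) and its window at chr12:112674885-112675134.
Mtor: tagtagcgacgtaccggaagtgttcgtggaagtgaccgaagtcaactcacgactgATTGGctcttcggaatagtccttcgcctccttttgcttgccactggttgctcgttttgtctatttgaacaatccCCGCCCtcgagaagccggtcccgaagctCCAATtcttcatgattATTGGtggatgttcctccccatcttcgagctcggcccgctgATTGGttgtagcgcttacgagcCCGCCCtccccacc
Rheb: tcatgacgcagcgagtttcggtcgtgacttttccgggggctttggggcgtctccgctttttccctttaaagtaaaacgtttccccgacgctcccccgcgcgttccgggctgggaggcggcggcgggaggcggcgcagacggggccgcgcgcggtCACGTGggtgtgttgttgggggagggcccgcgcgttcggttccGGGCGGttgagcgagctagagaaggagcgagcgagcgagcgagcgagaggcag
Rptor: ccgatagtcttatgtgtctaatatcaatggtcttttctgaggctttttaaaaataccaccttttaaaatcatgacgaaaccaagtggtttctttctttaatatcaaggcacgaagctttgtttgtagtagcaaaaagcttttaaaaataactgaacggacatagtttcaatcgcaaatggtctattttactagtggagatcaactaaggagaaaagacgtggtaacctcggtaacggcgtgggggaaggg
Akt1: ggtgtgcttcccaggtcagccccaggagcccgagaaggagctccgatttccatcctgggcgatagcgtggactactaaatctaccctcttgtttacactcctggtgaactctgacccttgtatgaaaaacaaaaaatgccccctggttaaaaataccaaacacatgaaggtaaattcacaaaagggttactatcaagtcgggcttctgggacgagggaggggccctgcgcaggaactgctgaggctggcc
The Mtor window held 2 GC boxes and 4 CCAAT boxes in 54.4% GC, and the Rheb window 1 GC box and 1 E-box in 68% GC. The Rptor window (37.6% GC) and the printed Akt1 window (52% GC) held none of these motifs, nor a TATA box (TATAAA) or a CRE (TGACGTCA). A second annotated start of Akt1, with its window inside the gene at chr12:112674277-112674526, had 78.4% GC and 4 GC boxes. Of 32851 promoter windows of this length, 32.7% held a GC box, 6.02% an E-box, 33.8% a CCAAT box, 12.4% a TATA box and 1.55% a CRE, and the median GC content was 52.4%. The remaining members lie at chr17:24473550-24479114 (Mlst8), chr15:6708349-6800401 (Rictor), chr2:28640993-28691172 (Tsc1) and chr17:24595816-24632676 (Tsc2). All 8 are protein-coding genes.

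Values are log2 RMA signals, on which a difference of 1 is a change of 2-fold. A signal of 5.16 served as the background level, the 95th percentile of 123 probe sets for olfactory and vomeronasal receptors and keratin-associated proteins, and 55.6% of all probe sets lay above it. The 42 arrays were alike in their medians, which ran from 5.40 to 5.56. Fmr1 itself checked the genotype labels: its KO minus WT difference was -0.94 in hippocampal and -0.90 in cortical culture (limma adjusted p = 6.56e-07 and 2.61e-06), and -0.93 in primary hippocampus and -0.99 in primary cortex (8.38e-08 and 1.72e-07), with no overlap between genotypes in any system. Markers of maturing glutamatergic neurons were higher in culture than in tissue for 6 of 6 genes in both regions, while all 6 markers of immature neurons were lower. Over all genes, at an adjusted limma p under 0.05, 35.9% were higher and 36.2% lower in hippocampal culture, and 35.3% and 35.9% in cortical culture. Levels of different probe sets cannot be ranked against each other, so each gene is compared only with itself across systems. Each gene is read first on its main probe set, the brightest that the annotation gives to that gene alone. Of the 22 probe sets of the members, 14 lay above background in all 8 groups, 3 in some and 5 in none. Those 5 dim probe sets were 1 for Rptor, 1 for Mlst8, 2 for Rictor and 1 for Tsc1, and every member had a main probe set that was above background throughout.

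**Figure D1:**
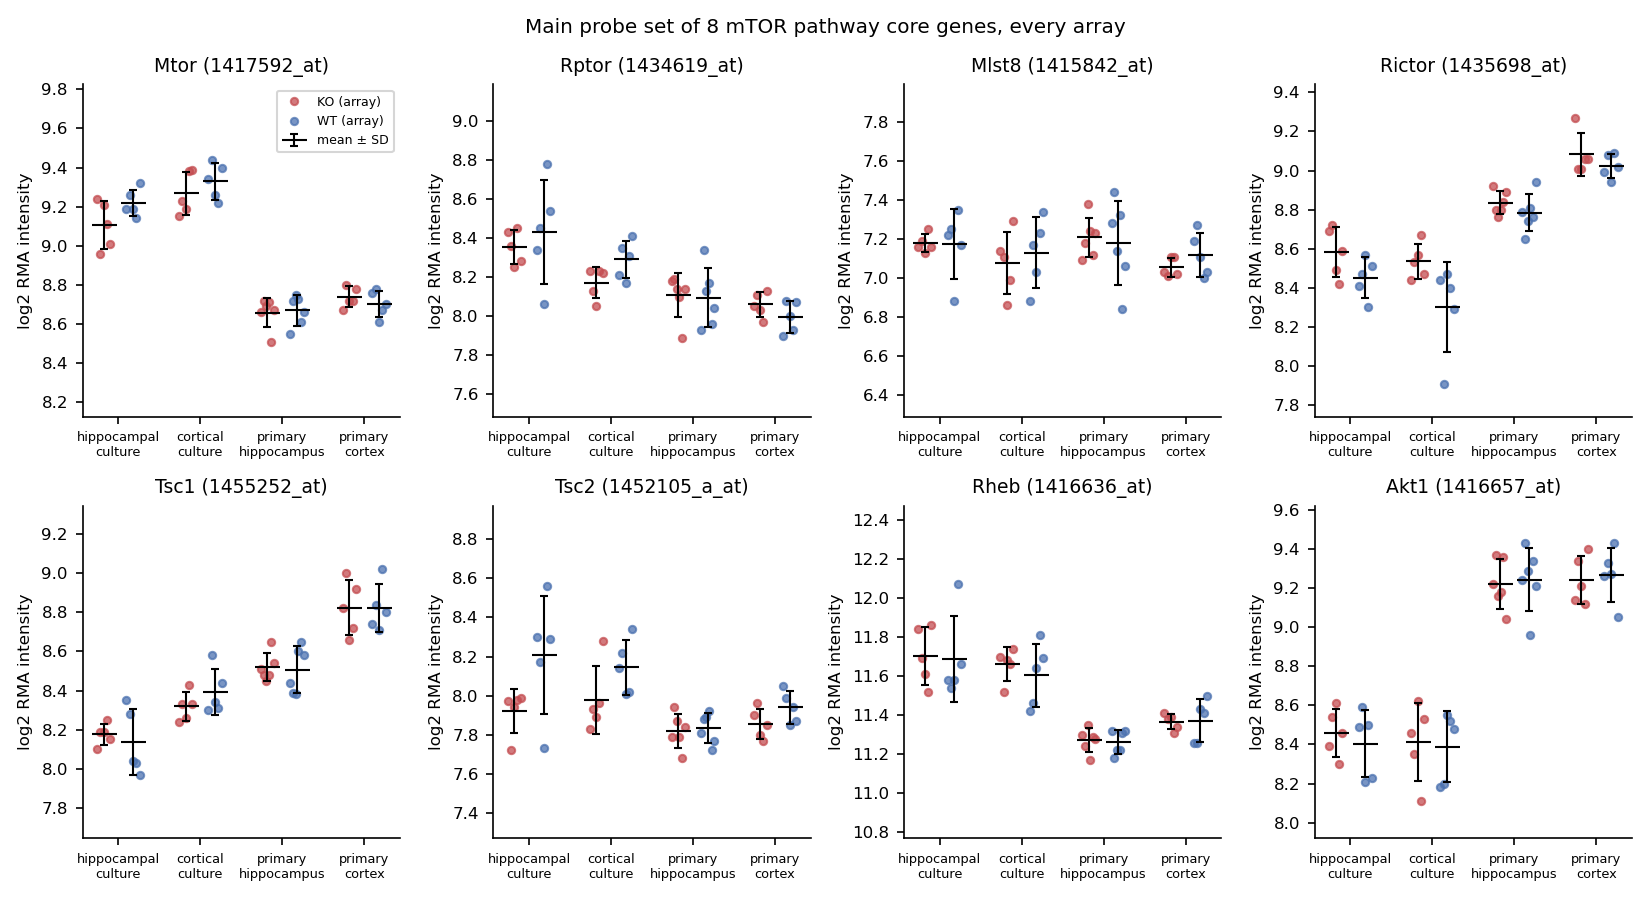
Log2 RMA signal of the main probe set of each member on every array, with the mean and SD of each group, KO in red left of WT in blue within each system. Each panel spans the same log2 width, so that the gap between cultures and tissue for Akt1, Mtor, Rictor and Tsc1 can be read against the small shifts between KO and WT.

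The genotype comparison asks whether loss of Fmr1 changed the transcripts of the pathway. A probe set was called at an unadjusted limma p under 0.05, the threshold of the study, with the Benjamini-Hochberg adjusted p over all 45037 probe sets beside it. In hippocampal culture 3 of 22 probe sets were called, all lower in KO, against 8.78% of all probe sets (3.3% lower). In cortical culture 2 of 22 were called, against 9.67% of all probe sets. In primary hippocampus and primary cortex 0 of 22 were called by limma at an unadjusted p under 0.05, against 1.71% and 1.94% of all probe sets. This limma fit used 1 spread per probe set for all 8 groups. Where cultures vary more than tissues, a shared spread makes calls easier in culture and harder in tissue. Calls in culture beside none in tissue therefore do not by themselves show that a KO effect differed. Counted on main probe sets, 1 of 8 genes was called in each culture, against 9.54% of all genes in the hippocampal and 10.2% in the cortical cultures, and 0 of 8 in each tissue, against 1.54% in the hippocampus and 1.66% in the cortex. At an adjusted limma p under 0.05 no probe set of a member was called in any system, against 0.00666% of all probe sets in primary hippocampus and 0.00222% in each of the other systems. The median difference over the 22 probe sets was -0.03 in the hippocampal and -0.06 in the cortical cultures, against -0.00 and -0.01 over all probe sets.

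**Figure D2:**
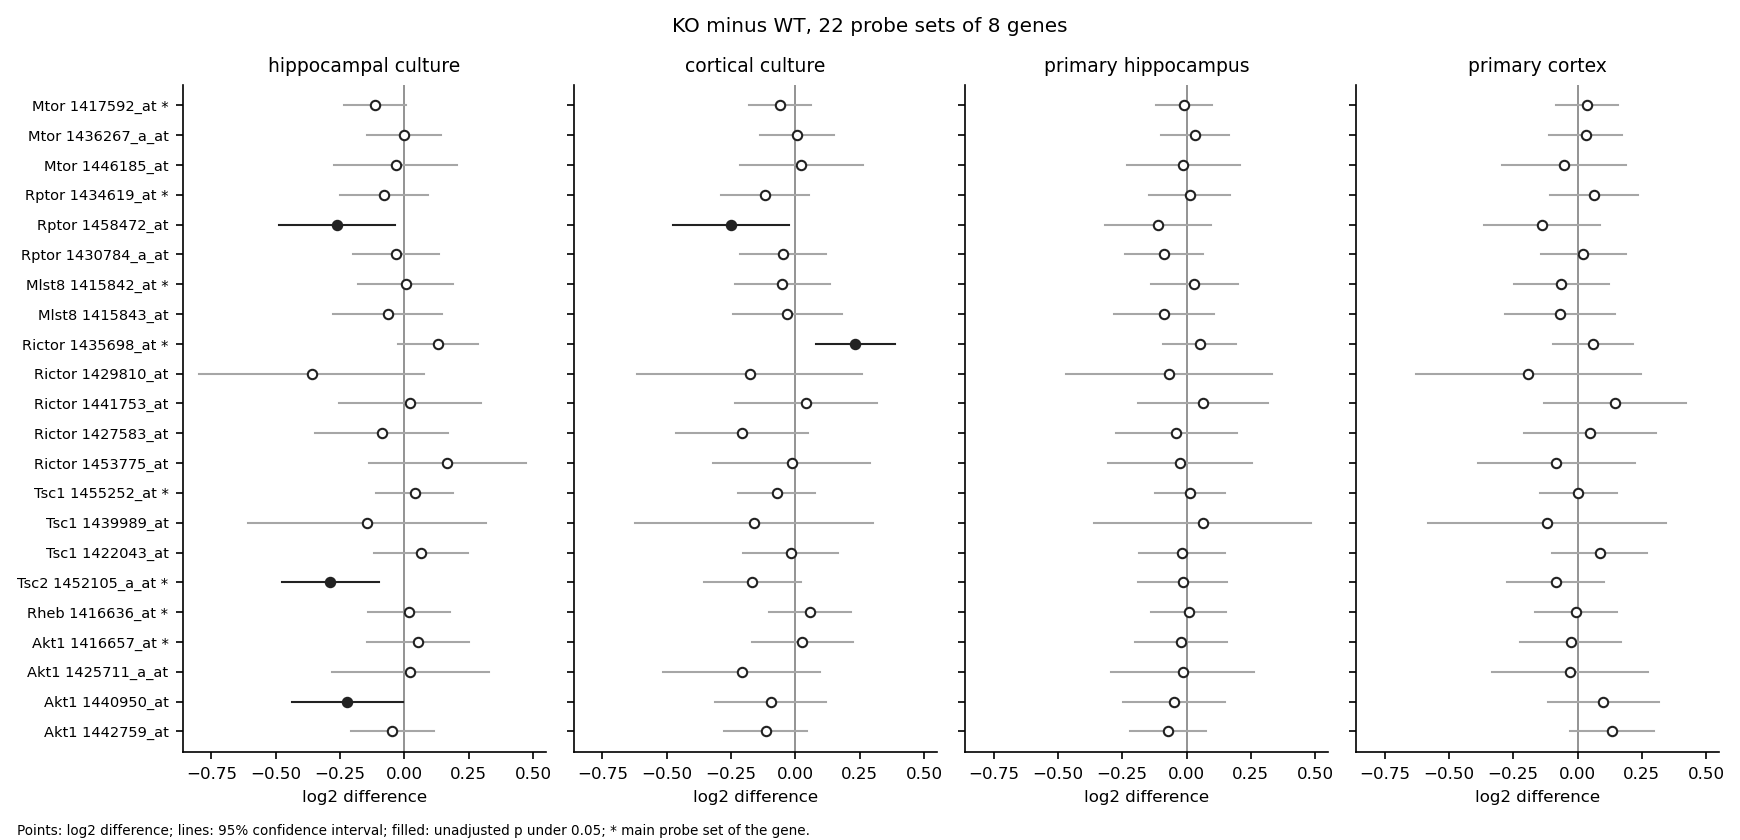
KO minus WT log2 difference of the 22 probe sets of the members in the 4 systems, with 95% confidence intervals from limma and filled points for an unadjusted p under 0.05. Tsc2 in hippocampal culture (-0.29) and Rictor in cortical culture (0.23) were the main probe sets called, and no filled point lies in either tissue.

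Tsc2, the GTPase-activating subunit that turns Rheb off, had the smallest p of the members in hippocampal culture. The Tsc2 signals there were 7.97, 7.72, 7.94, 7.98 and 7.99 in the KO cultures, against 8.30, 8.17, 7.73, 8.56 and 8.29 in the WT cultures. All KO cultures lay below 4 of the 5 WT cultures. KO litter 2038, at 7.72, stood apart from the other 4 KO cultures, and WT litter 2644, at 7.73, lay beside it and below those 4. The difference was -0.29 (standard error 0.09, 95% interval -0.48 to -0.10) with a limma p of 0.00378 and an adjusted p of 0.345, and the exact two-sided permutation test over the 10 arrays gave p = 0.0873. Fitted on the arrays of this system alone, Tsc2 narrowly missed the threshold (limma p = 0.0522, beside the same exact p). Leaving out 1 culture moved it between -0.41 (without WT 2644) and -0.20 (without WT 3569). WT 2644 and WT 3569 were also the lowest and highest WT hippocampal cultures on the mean signal of the list of mature glutamatergic markers, at 8.59 and 9.65, against 9.05 to 9.30 in the KO cultures. WT 2644 had the highest level of the dividing-cell list, 8.90, where the KO cultures ran from 7.51 to 8.12. The part of these marker levels in the Tsc2 difference was not tested, and in bulk RNA fewer cells of a type and less RNA per cell cannot be told apart.

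The other systems held smaller Tsc2 differences. In cortical culture Tsc2 was at 7.83, 7.93, 7.89, 7.96 and 8.28 in the KO cultures, against 8.14, 8.22, 8.01, 8.02 and 8.34 in the WT cultures. Litter 4236, the highest KO culture, lay above all but the highest WT culture, and the other 4 KO cultures lay below every WT culture. The difference was -0.17 (standard error 0.09, limma p = 0.0804, adjusted p = 0.575, exact permutation p = 0.143), which did not pass. Without KO 4236 it was -0.24 and passed the unadjusted threshold. In primary cortex Tsc2 signals were 7.90, 7.96, 7.80, 7.77 and 7.85 in KO and 8.05, 7.99, 7.85, 7.94 and 7.87 in WT, overlapping, a difference of -0.08 (exact permutation p = 0.143). In primary hippocampus the 6 KO and 6 WT tissues covered much the same range, and the difference was -0.02 (exact permutation p = 0.747).

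Rictor, the subunit that defines mTORC2, was the member called in cortical culture, with a higher level in KO. Its main probe set read 8.44, 8.53, 8.57, 8.67 and 8.47 in the KO cultures, against 8.44, 7.91, 8.47, 8.40 and 8.29 in the WT cultures. Of the KO cultures, 4 were above all 5 WT cultures, and WT litter 2643 stood well below the rest. The difference was 0.23 (standard error 0.08, 95% interval 0.08 to 0.39) with a limma p of 0.00421, an adjusted p of 0.347 and an exact two-sided permutation p of 0.0317. Without WT 2643 the Rictor difference was 0.14 and still passed, and fitted on the arrays of this system alone it narrowly missed the threshold (limma p = 0.0514, beside the same exact p). In hippocampal culture Rictor was at 8.69, 8.72, 8.49, 8.42 and 8.59 in KO and at 8.41, 8.47, 8.57, 8.30 and 8.51 in WT, a difference of 0.13 that did not pass (limma p = 0.0978, exact permutation p = 0.119). The Rictor difference was 0.05 in primary hippocampus and 0.06 in primary cortex, where KO and WT overlapped (exact permutation p = 0.29 and 0.389). The other 4 Rictor probe sets were not called in any system, and 1 of them, 1429810_at, had values of the other sign in the cultures (-0.36 in hippocampal culture, exact permutation p = 0.214, and -0.18 in cortical culture).

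The remaining KO calls fell on secondary probe sets. Rptor probe set 1458472_at, at or below background in all but 1 group, read 4.91, 4.61, 4.82, 4.90 and 4.97 in KO hippocampal cultures, against 5.42, 4.94, 5.30, 4.90 and 4.96 in WT. Its difference was -0.26 (standard error 0.11, limma p = 0.0239, adjusted p = 0.485, exact permutation p = 0.0794) in hippocampal culture and -0.25 (limma p = 0.0308, adjusted p = 0.474) in cortical culture. These levels lie where signal and background are not separated, and leaving out 1 culture ended the call in 3 of 10 cases in hippocampal and 6 of 10 in cortical culture. The main Rptor probe set was not called: its differences were -0.08 in hippocampal and -0.12 in cortical culture, and 0.01 and 0.06 in the hippocampal and cortical tissue. Its hippocampal value rested on WT litters 2644 and 3569, being -0.17 without WT 2644, where it passed the unadjusted threshold, and 0.01 without WT 3569. Akt1 probe set 1440950_at read 6.46, 6.30, 6.68, 6.70 and 6.62 in KO hippocampal cultures, against 6.82, 6.82, 6.57, 6.84 and 6.82 in WT. The WT cultures were tightly grouped apart from litter 2644, at 6.57, and the difference was -0.22 (standard error 0.11, limma p = 0.0446, adjusted p = 0.552, exact permutation p = 0.0317). On the main Akt1 probe set the differences were 0.05 and 0.03 in hippocampal and cortical culture and -0.02 and -0.03 in the matching tissues.

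Mtor, the kinase itself, read 9.24, 8.96, 9.21, 9.11 and 9.01 in KO hippocampal cultures, against 9.19, 9.26, 9.19, 9.14 and 9.32 in WT. KO litters 2038 and 4236 were the lowest, and the other 3 KO cultures lay within or next to the WT range. The difference was -0.11 (standard error 0.06, limma p = 0.0615, exact permutation p = 0.119). The Mtor difference was -0.06 in the cortical cultures, and in tissue it was -0.01 for the hippocampus and 0.04 for the cortex. Rheb differed by 0.02 and 0.06 in hippocampal and cortical culture and by 0.01 and -0.01 in the matching tissues. Tsc1 differed by 0.04 and -0.07 in those cultures and by 0.01 and 0.00 in those tissues, and Mlst8 by 0.00 and -0.05 in the cultures and by 0.03 and -0.06 in the tissues. None of these 3 genes was called in any system on its main probe set. A limma p above 0.05 does not show that KO and WT were alike.

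Averaging the 4 arrays of each litter gave 5 KO and 5 WT litter means, to which a shift in any of the systems contributes. For Rictor and Tsc2 the differences were wider in the cultures than in the tissues. Their litter means therefore do not by themselves show a shift shared by all systems. On these means limma called 3 of 22 probe sets at an unadjusted p under 0.05, against 3.9% of all probe sets, and 2 of 8 genes on the main probe set, against 4.54% of all genes. Litter means of Rictor ran from 8.71 to 8.83 in KO and from 8.53 to 8.69 in WT, without overlap. The Rictor difference was 0.12 (standard error 0.04, limma p = 0.0137), and the exact permutation p of 0.00794 is the smallest that 5 against 5 litters can give. Rictor probe set 1429810_at ran the other way (means of 6.81 in KO and 6.99 in WT, exact permutation p = 0.222). Probe set 1441753_at ran the same way as the main one (5.73 and 5.65, exact permutation p = 0.238). Litter means of Tsc2 ran from 7.87 to 7.95 in KO and from 7.87 to 8.08 in WT, meeting only at the low end, where WT litter 2644 lay. The Tsc2 difference was -0.14 (standard error 0.04, limma p = 0.0106, exact permutation p = 0.0476). The third call was the dim Rptor probe set 1458472_at, at -0.20 (limma p = 0.0182, exact permutation p = 0.0556). All 3 had an adjusted limma p of 0.9995, where 0.00666% of all probe sets passed, and they rest on the same arrays as the comparisons within systems, so that they are not separate evidence.

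Whether the KO effect differed between systems was fitted as a difference of differences. At an adjusted limma p under 0.05, 0 of 22 probe sets differed between hippocampal culture and primary hippocampus, between cortical culture and primary cortex, between the cultures or between the tissues, as did 0% of all probe sets. At an unadjusted p under 0.05, 1 of 22 was called in each culture against tissue comparison, against 5.02% and 4.67% of all probe sets, and 0 of 22 between the cultures (4.66%) or between the tissues (1.57%). These were Tsc2 in the hippocampus, where the KO effect was lower in culture than in tissue by 0.27 (difference -0.27, standard error 0.13, limma adjusted p = 0.957), and the dim Akt1 probe set 1442759_at in the cortex (difference -0.25, standard error 0.11, limma adjusted p = 0.9998). Without the WT hippocampal culture of litter 3569 the Tsc2 difference was -0.19 and no longer passed the unadjusted threshold. After adjustment the Tsc2 call in hippocampal culture is thus not shown to differ from its value in primary hippocampus.

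The genes around the core were read from lists of 79 measured pathway genes, grouped by role. In hippocampal culture 7 of the 79 were higher in KO and 1 lower on the main probe set, again at an unadjusted limma p under 0.05, against 6.87% of all genes higher and 2.67% lower. In cortical culture 11 were higher and 1 lower, against 6.17% and 4.03% of all genes. In both tissues 0 of 79 were called by limma, against 1.54% of all genes in the hippocampal and 1.66% in the cortical tissue. With shares this low, the lack of calls does not set these pathway genes apart from other genes. The calls in hippocampal culture lay among the other subunits of the complexes (2 of 9 higher), the energy and stress inputs (4 higher and 1 lower of 14) and the translation targets (1 of 9 higher), with 0 of 14 growth factor, 0 of 19 amino acid and 0 of 14 other target genes. The calls in cortical culture were 4 of 9 translation targets, 3 of 9 complex subunits, 2 of 19 amino acid genes, 1 of 14 energy and stress genes and, among 14 growth factor genes, 1 higher and 1 lower. The median difference over the 79 genes was 0.06 in hippocampal and 0.04 in cortical culture.

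**Figure D3:**
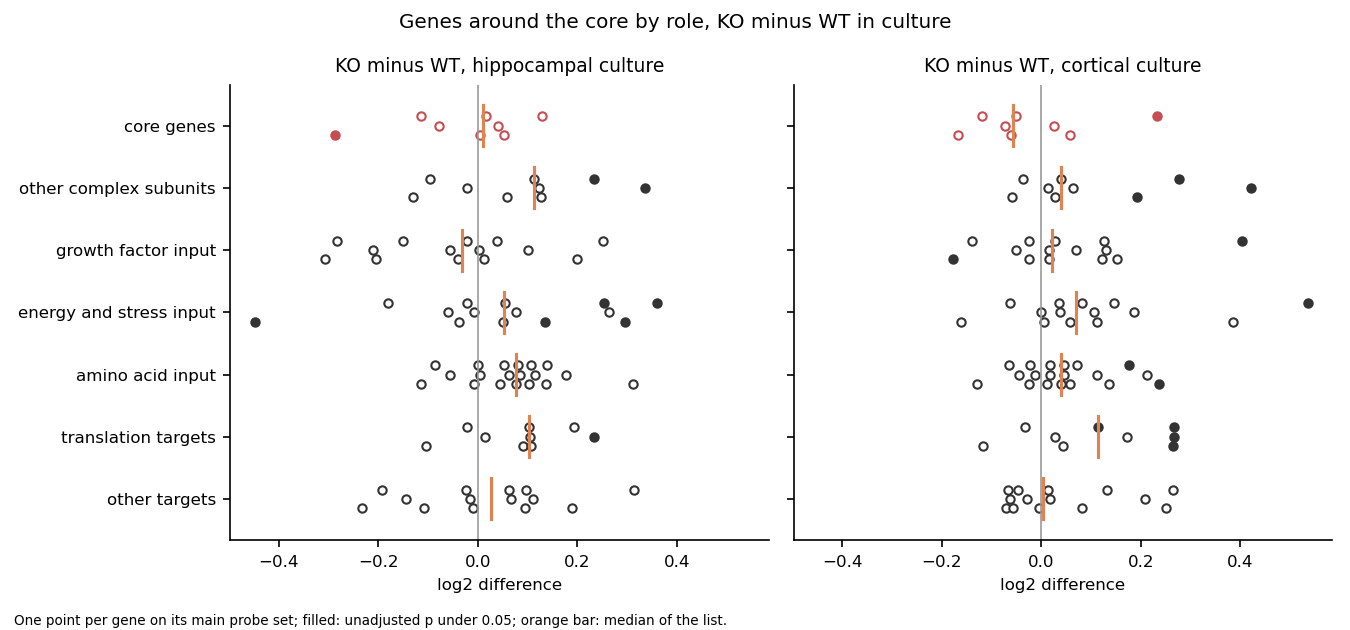
KO minus WT log2 difference of the 8 core genes (red) and of 79 other pathway genes grouped by role, each on its main probe set, in hippocampal and cortical culture. Filled points passed an unadjusted limma p under 0.05 and orange bars mark list medians; 8 of the 79 genes are filled in hippocampal and 12 in cortical culture.

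Tbc1d7, the third subunit of the TSC complex, had the smallest p of these genes. It read 8.15, 8.40, 8.08, 8.04 and 8.32 in KO hippocampal cultures, against 7.76, 7.93, 7.72, 7.98 and 7.92 in WT. All 5 KO cultures were above all 5 WT cultures, a difference of 0.34 (standard error 0.07, limma p = 9.58e-06, adjusted p = 0.0902, exact permutation p = 0.00794). In cortical culture Tbc1d7 was at 8.06, 8.10, 7.94, 7.96 and 8.00 in KO and at 7.63, 8.01, 7.79, 7.84 and 7.83 in WT. KO was higher there too, with WT litter 2643 inside the KO range (difference 0.19, standard error 0.07, limma p = 0.00569, exact permutation p = 0.0317). Among the TSC complex genes in hippocampal culture, Tsc2 was thus called lower and Tbc1d7 higher in KO at an unadjusted limma p under 0.05. Tsc1 was not called, and neither Tsc2 nor Tbc1d7 passed at an adjusted p under 0.05.

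Mapkap1 encodes mSIN1, a subunit of mTORC2 beside rictor. It read 9.30, 9.07, 9.12, 9.02 and 8.88 in KO cortical cultures, against 8.85, 8.72, 8.91, 8.69 and 8.83 in WT. Only the lowest KO culture and the highest WT culture crossed, and the difference was 0.28 (standard error 0.07, limma p = 0.000343, adjusted p = 0.291, exact permutation p = 0.0159). Eef2k, the kinase that slows elongation by phosphorylating eEF2, was at 8.67, 8.76, 8.63, 8.66 and 8.58 in KO and at 8.45, 8.39, 8.40, 8.38 and 8.35 in WT cortical cultures. The genotypes did not overlap, and the difference was 0.27 (standard error 0.10, limma p = 0.0124, exact permutation p = 0.00794). In hippocampal culture Eef2k was also higher in KO by 0.23 (limma p = 0.0278), but the genotypes overlapped there (exact permutation p = 0.262). Prkaa1, a catalytic subunit of the energy sensor AMPK, was higher by 0.54 in KO cortical cultures (limma p = 0.00267, exact permutation p = 0.0476), but the WT mean of 5.16 lay at background and the difference was 0.33 without WT litter 2643. Prr5l, which binds mTORC2, was higher by 0.42 (limma p = 0.00345, exact permutation p = 0.0159) with means of 5.22 in KO and 4.80 in WT, also at background. Only the KO mean met the background rule for naming a gene, so that these p-values cannot serve as support. In hippocampal culture the Prr5l difference was -0.13 and was not called. Prkaa1 was higher there in KO by 0.36 (limma p = 0.0369, exact permutation p = 0.0556), with means of 6.11 in KO and 5.75 in WT, above background. In hippocampal culture Sesn2, a leucine sensor and stress-induced inhibitor of mTORC1, was lower in KO by 0.45 (difference -0.45, standard error 0.16, limma p = 0.00752, exact permutation p = 0.0714), and without WT 2644 the difference was -0.30 and did not pass. Smaller increases in KO hippocampal cultures were measured for Rhebl1, a relative of Rheb (0.23, exact permutation p = 0.0794), Cab39, a partner of the AMPK-activating kinase LKB1 (0.14, p = 0.0476), and Prkab2, an AMPK subunit (0.30, p = 0.0317), all 3 with an unadjusted limma p under 0.05. In the same cultures 4 of 6 markers of immature neurons were higher in KO at an unadjusted limma p under 0.05, against 6.87% of all genes. These were Tubb3 (0.50), Dcx (0.53), Nrep (0.33) and Sox11 (0.36), while Sox4 (0.01) and Igfbpl1 (-0.19) did not pass. None of the 6 passed at an adjusted p under 0.05. The mean signal of that list ran from 9.85 to 10.45 in KO and from 9.32 to 10.48 in WT cultures, so that the genotypes overlapped. Its part in the differences of the pathway genes was not tested.

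The culture and tissue comparison gave the larger differences in the core genes. At an adjusted limma p under 0.05, 15 of 22 probe sets differed between hippocampal culture and primary hippocampus, against 67.9% of all probe sets, with 9 higher and 6 lower in culture (36.9% and 31% of all). Between cortical culture and primary cortex 16 of 22 differed, against 67.5% of all, with 9 higher and 7 lower (35.6% and 32%). On main probe sets 7 of 8 genes differed in each region, against 72.1% of all genes for the hippocampus and 71.2% for the cortex. The members were therefore called about as often as the rest of the array. No member changed by 2-fold or more in either region, which 15.7% of all probe sets did in the hippocampus and 14.9% in the cortex. Mtor, Rheb, Rptor and Tsc2 were higher in culture, and Akt1, Rictor and Tsc1 were lower, in both regions alike.

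**Figure D4:**
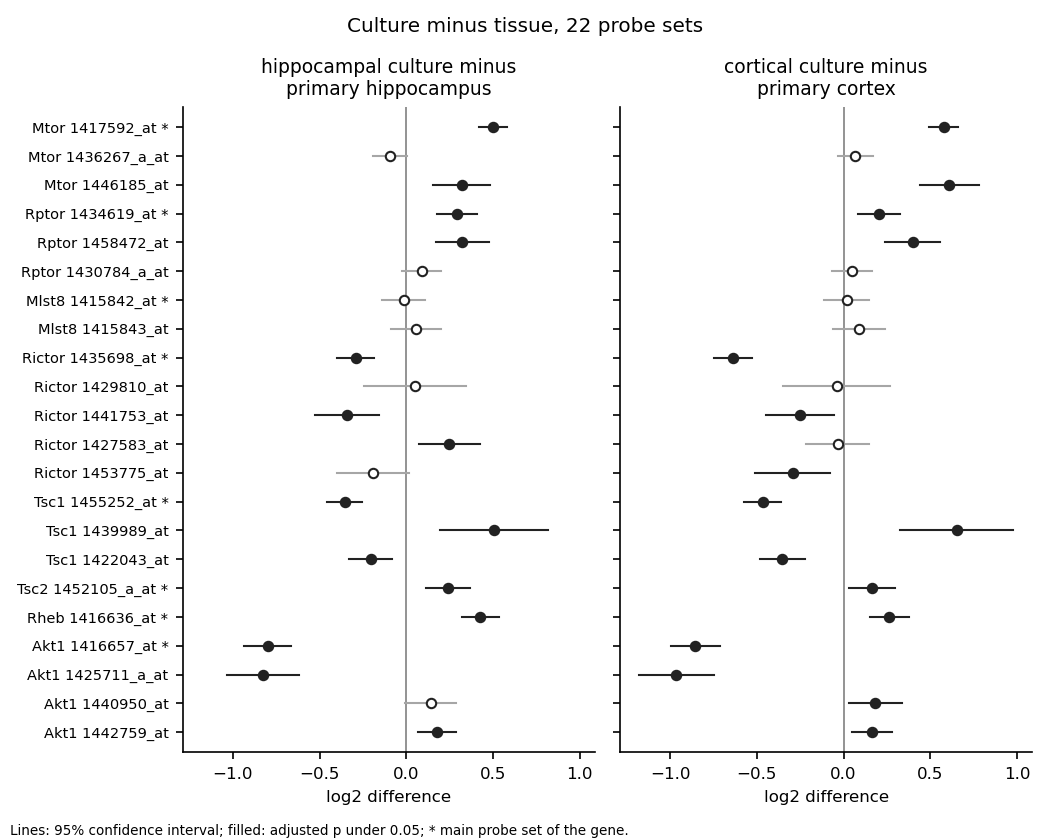
Culture minus tissue log2 difference of the 22 probe sets of the members in hippocampus and cortex, with 95% confidence intervals from limma and filled points for an adjusted p under 0.05. Main probe sets run from Akt1 (-0.80 and -0.85) to Mtor (0.50 and 0.58), and Mlst8 lies near the zero line (-0.02 and 0.02).

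Mtor signals ran from 8.96 to 9.32 (median 9.19) in the 10 hippocampal cultures, against 8.51 to 8.75 (median 8.68) in the 12 primary hippocampus arrays. In the cortex they ran from 9.15 to 9.44 (median 9.30) in culture, against 8.61 to 8.80 (median 8.72) in tissue. Every culture lay above every tissue, so that Mtor set the systems apart on its own. The difference was 0.50 in the hippocampus (standard error 0.04, limma adjusted p = 4.16e-14), which is 1.41-fold, and 0.58 in the cortex (standard error 0.04, adjusted p = 2.48e-15), which is 1.49-fold. It was higher in culture in 10 of 10 litters in both regions. The second brightest Mtor probe set, 1436267_a_at, above background in all 8 groups, did not pass (-0.10 and 0.07). The dim 1446185_at, above background in 4 of 8 groups, gave 0.32 and 0.61, so that the main probe set is the only clearly measured one that was higher.

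Rheb, the activator of mTORC1, ran from 11.52 to 12.07 (median 11.63) in hippocampal cultures, against 11.17 to 11.35 (median 11.29) in primary hippocampus. The Rheb difference was 0.43 in the hippocampus (standard error 0.05, limma adjusted p = 4.31e-09) and 0.26 in the cortex (standard error 0.06, adjusted p = 7.30e-05), and all 10 litters were higher in culture in both regions. Rptor ran from 8.06 to 8.78 (median 8.40) in hippocampal cultures, against 7.89 to 8.33 (median 8.13) in primary hippocampus, with overlap. Its differences were 0.29 (standard error 0.06, limma adjusted p = 2.40e-05) and, in the cortex, 0.20 (standard error 0.06, adjusted p = 0.00295), with 9 and 10 of 10 litters higher. Tsc2 covered 7.72 to 8.56 (median 7.99) in hippocampal cultures, against 7.68 to 7.94 (median 7.83) in primary hippocampus. Its cultures varied more than its tissues, and the differences were the smallest of those called: 0.24 (standard error 0.06, limma adjusted p = 0.00103) and 0.16 in the cortex (standard error 0.07, adjusted p = 0.0275), with 8 of 10 litters higher in each region. With arrays centred on their medians the cortical values of Rptor (0.11, adjusted p = 0.114) and Tsc2 (0.07, adjusted p = 0.355) no longer passed, and Tsc2 in the cortex also did not pass without KO litter 4236 (0.13, adjusted p = 0.0809).

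Akt1, the kinase upstream of the TSC complex, had the widest gap of the members and in the opposite direction. Its signals ran from 8.21 to 8.61 (median 8.48) in hippocampal cultures, against 8.96 to 9.43 (median 9.23) in primary hippocampus. In the cortex they ran from 8.11 to 8.62 (median 8.47) in culture, against 9.05 to 9.43 (median 9.27) in tissue. No culture reached the lowest tissue, and all 10 litters were lower in culture in both regions. The differences were -0.80 (standard error 0.07, limma adjusted p = 9.52e-14) and -0.85 (standard error 0.07, adjusted p = 6.14e-14). Probe set 1425711_a_at of Akt1 gave -0.83 and -0.96, but the dimmer 1442759_at gave 0.18 and 0.16 and 1440950_at gave 0.14 (adjusted p = 0.0829) and 0.18 (adjusted p = 0.0308), so that the probe sets of this gene disagreed in sign.

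Rictor ran from 8.30 to 8.72 (median 8.50) in hippocampal cultures, against 8.65 to 8.94 (median 8.80) in primary hippocampus. In the cortex it ran from 7.91 to 8.67 (median 8.46) in culture, against 8.94 to 9.27 (median 9.04) in tissue, without overlap. The Rictor difference was -0.29 in the hippocampus (standard error 0.05, limma adjusted p = 4.98e-06) and -0.63 in the cortex (standard error 0.05, adjusted p = 3.03e-13), lower in culture in 10 of 10 litters in both. The hippocampal and cortical differences themselves differed by 0.34 (hippocampus minus cortex, standard error 0.07, limma adjusted p = 0.000507), the only one of the 22 probe sets to do so, against 27.4% of all probe sets. Tsc1 ran from 7.97 to 8.35 (median 8.17) in hippocampal cultures, against 8.38 to 8.65 (median 8.50) in primary hippocampus. Again no culture reached the lowest tissue. The Tsc1 differences were -0.36 (standard error 0.05, limma adjusted p = 5.53e-08) and, in the cortex, -0.47 (standard error 0.05, adjusted p = 3.36e-10), while Tsc1 probe set 1439989_at ran the other way (0.51 and 0.65). Among the secondary Rictor probe sets, the brightest, 1429810_at, did not pass (0.05 and -0.04), and neither did the dim 1453775_at in the hippocampus (-0.19), which was lower in cortical culture (-0.29). Probe set 1441753_at was lower in culture as the main one was (-0.34 and -0.25), and the dim 1427583_at was higher in hippocampal culture (0.25) with no call in the cortex (-0.03).

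Mlst8, the subunit shared by mTORC1 and mTORC2, differed little between culture and tissue. It ran from 6.88 to 7.35 in hippocampal cultures, 6.86 to 7.34 in cortical cultures, 6.84 to 7.44 in primary hippocampus and up to 7.27 in primary cortex, where the median was 7.07. The difference between culture and tissue was -0.02 in the hippocampus (95% interval -0.14 to 0.11) and 0.02 in the cortex (95% interval -0.11 to 0.15). Its 8 group means spread over 0.15 in all, against 0.88 for Akt1, 0.78 for Rictor, 0.69 for Tsc1, 0.67 for Mtor, 0.44 for Rheb and Rptor and 0.39 for Tsc2. The intervals bound any change of Mlst8 well below the differences measured for Mtor and Akt1.

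Marker transcripts of several cell types differed between culture and tissue as well. The median culture minus tissue difference over 6 markers of mature glutamatergic neurons was 2.24 in the hippocampus and 1.29 in the cortex, and over 6 markers of immature neurons -1.98 and -1.58. Astrocyte markers were higher in culture for 5 of 6 genes in the hippocampus and 6 of 6 in the cortex (medians 1.47 and 2.24). Dividing-cell markers were lower for 5 of 5 genes (medians -2.85 and -1.15), microglia markers for 6 of 6 (-2.36 and -1.87) and endothelial markers for 5 of 6 (-1.40 and -1.19). Over all genes, at an adjusted limma p under 0.05, 35.9% were higher and 36.2% lower in hippocampal culture, and 35.3% and 35.9% in cortical culture. In both kinds of culture at least 5 of 6 microglia markers and 5 of 6 endothelial markers lay at background, so that their differences may understate how far they were lower. In tissue 2 of 6 mature glutamatergic markers lay at background in both regions, as did 1 of 6 astrocyte markers in the hippocampus and 2 of 6 in the cortex. Their differences are limited likewise. Whether the marker differences reflect numbers of cells, their maturation or RNA per cell cannot be told apart, and their part in the differences of the mTOR genes was not tested.

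Hippocampus and cortex were compared within each kind of sample. In tissue, 4 of 22 probe sets differed at an adjusted limma p under 0.05, all lower in primary hippocampus than in primary cortex, against 31.1% of all probe sets (15.9% lower). Rictor and Tsc1 differed on their main probe sets, 2 of 8 genes against 36.4% of all genes. Rictor ran from 8.65 to 8.94 in primary hippocampus, against 8.94 to 9.27 in primary cortex, a difference of -0.24 (standard error 0.05, limma adjusted p = 0.000267). Tsc1 ran from 8.38 to 8.65 in primary hippocampus, against 8.66 to 9.02 in primary cortex, a difference of -0.31 (standard error 0.05, adjusted p = 4.24e-06). Both were lower in the hippocampus in 10 of 10 litters. Same-litter tissues deviated together in all 10 litters, and with the tissues fitted alone and litter as a replicate block 6 of 22 probe sets and 3 of 8 genes passed, Rheb being added (-0.10, limma adjusted p = 0.0357). The shares of all probe sets and genes given above belong to the fit on all arrays, so this count cannot be set against them. Mlst8 was higher in primary hippocampus in 9 of 10 litters but did not pass in either fit (0.11, adjusted p = 0.208, and 0.09 with the block, adjusted p = 0.0785). Of the secondary probe sets, Tsc1 1422043_at (-0.19, adjusted p = 0.0131) and Rictor 1427583_at (-0.23, adjusted p = 0.0411) followed, both below background, and that Rictor probe set lost its call in 11 of 22 cases when 1 array was left out.

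In culture, 4 of 22 probe sets differed between hippocampal and cortical cultures, against 24.9% of all probe sets, and 3 of 8 genes on the main probe set, against 28.2% of all genes. Tsc1 was again lower in the hippocampal samples, with a range of 7.97 to 8.35 against 8.24 to 8.58 in cortical cultures and a difference of -0.20 (standard error 0.05, limma adjusted p = 0.00359). Mtor was lower in hippocampal cultures by 0.14 (difference -0.14, standard error 0.04, adjusted p = 0.0128), and its probe set 1446185_at gave -0.26 (adjusted p = 0.018). With the cultures fitted alone and litter as a replicate block the main Mtor probe set no longer passed (-0.14, adjusted p = 0.0812). Rptor was higher in hippocampal cultures by 0.16 (standard error 0.06, adjusted p = 0.0426), a call that ended in 10 of 20 cases when 1 array was left out. Rictor, which separated the tissues, did not pass between the cultures (0.10). Tsc1 was thus called in both region comparisons, and in both genotypes its group means were highest in primary cortex, then in primary hippocampus, and lowest in hippocampal culture.

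Among the 79 other pathway genes, 27 were higher and 40 lower in hippocampal culture than in primary hippocampus at an adjusted limma p under 0.05, with 12 not called, a median difference of -0.15, and 35.9% higher and 36.2% lower over all genes. In the cortex 27 were higher and 37 lower, with 15 not called, a median of -0.07, and 35.3% and 35.9% over all genes. The other complex subunits were mostly lower in hippocampal culture (1 higher and 6 lower of 9), as were the translation targets (3 and 6 of 9) and the energy and stress genes (5 and 9 of 14), while other targets were more often higher (9 and 5 of 14). Growth factor genes were split (6 and 7 of 14), and 3 of 19 amino acid genes were higher and 7 lower. In the cortex the corresponding counts were 1 and 3 of 9 complex subunits, 3 and 6 of 9 translation targets, 6 and 7 of 14 energy and stress genes, 7 and 4 of 14 other targets, 5 and 7 of 14 growth factor genes and 5 and 10 of 19 amino acid genes. The other pathway genes thus moved in both directions within every role, as the core genes did.

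**Figure D5:**
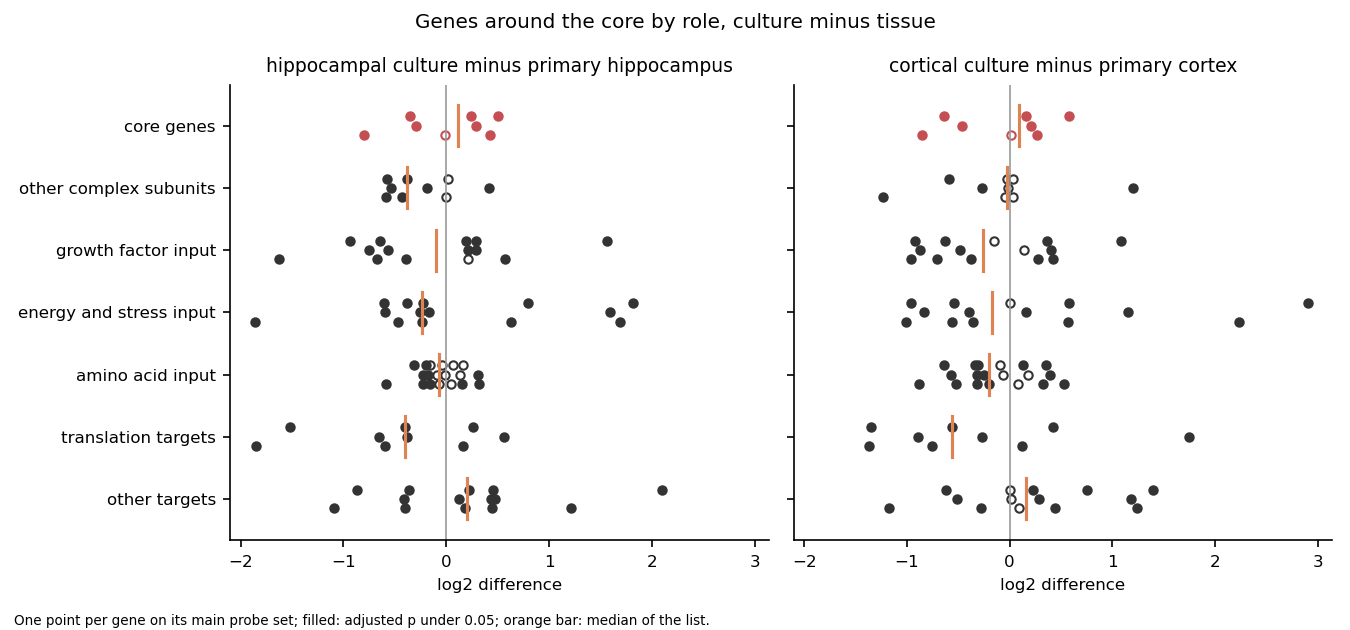
Culture minus tissue log2 difference of the 8 core genes (red) and of 79 other pathway genes grouped by role, each on its main probe set, for hippocampus and cortex. Filled points passed an adjusted limma p under 0.05 and orange bars mark list medians; several of the other genes exceed the widest core difference, that of Akt1.

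The genes with the widest differences were named in each direction. In hippocampal culture Prkca, a protein kinase C that depends on mTORC2 for its stability, averaged 11.62 against 9.53 in primary hippocampus (difference 2.09), and Ddit4l, a stress-induced inhibitor of mTORC1, 8.75 against 6.94 (1.82). Prkaa2, the AMPK catalytic subunit prominent in neurons, averaged 7.99 in hippocampal culture and 6.30 in primary hippocampus (1.69). Lower in hippocampal culture were Sesn1, another sestrin (7.59 against 9.45, difference -1.86), Eif4ebp2, the main brain form of the translation repressor 4E-BP (5.95 against 7.80, -1.85), and Grb10, an adaptor that dampens insulin receptor signals (8.75 against 10.38, -1.63). The cortex shared Ddit4l and Eif4ebp2 with these lists. In cortical culture Ddit4l averaged 9.16 against 6.26 in primary cortex (2.90), Sesn2 8.19 against 5.96 (2.23) and Eif4ebp1, another 4E-BP, 7.87 against 6.12 (1.75). Lower in cortical culture were Eif4ebp2 (6.42 against 7.79, -1.37), Rps6, the ribosomal protein phosphorylated downstream of mTORC1 (7.56 against 8.91, -1.35), and Rhebl1 (7.35 against 8.58, -1.23). The 4E-BP genes Eif4ebp1 and Eif4ebp2 thus moved in opposite directions in cortical culture. Between the tissues 19 of 79 genes were higher and 20 lower in primary hippocampus (19.7% and 16.7% of all genes), led by the transcription factor Foxo1 (1.52), Sesn3 (1.07) and the insulin receptor substrate Irs1 (0.88) on the higher side and by Prkaa2 (-1.60), Rhebl1 (-0.73) and Irs2 (-0.54) on the lower. Between the cultures 16 were higher and 18 lower in the hippocampal ones (14.7% and 13.5% of all genes), led by Prkca (1.04), the PI3-kinase subunit Pik3r3 (0.72) and Irs1 (0.60), and by Eif4ebp1 (means of 6.87 in hippocampal and 7.87 in cortical cultures), the kinase Sgk3 (-0.97) and Sesn1 (-0.66).

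Across all 42 arrays the members fell into opposed sets, given here as a description with no test, since the arrays share systems and litters. Mtor correlated with Akt1 at Pearson r = -0.92, with Rictor at -0.81 and with Rheb at 0.72. Akt1 correlated with Rictor at 0.78, with Tsc1 at 0.74 and with Rheb at -0.74. Rictor correlated with Tsc1 at 0.71 and Rptor with Tsc2 at 0.70, whereas Mlst8 was unrelated to Mtor (-0.01). These values largely restate which genes were higher in culture and which in tissue. The genes most like each member were sought among 10872 genes above background by the same measure. They were Ndufb9 (0.97), Eif4g3 (0.96) and Cds2 (0.96) for Mtor, Mpc1 (0.96), B230217C12Rik (0.95) and Zfand2a (0.94) for Rheb, and 2700081O15Rik (0.97), Ctbp1 (0.96) and Kat6a (0.96) for Akt1. For Rictor they were Rc3h2 (0.94), Zfp729b (0.92) and Zfp654 (0.92), and for Tsc1 Vopp1 (0.92), Rhebl1 (0.91) and Trim67 (0.91). Likeness was weaker for Rptor (Pgs1 and Mknk1 at 0.85, Pip4k2c at 0.84), Tsc2 (Tnpo2 at 0.81, Xpo6 at 0.78, Slc25a25 at 0.75) and Mlst8 (2310011J03Rik at 0.68, Flywch1 at 0.67, Abitram at 0.66).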

How the data were processed

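RNA from 42 samples (100 ng each, RNA integrity above 8) was read on Affymetrix mouse 3′ expression arrays. The authors extracted and normalized the deposited log2 values with the robust multi-array average (RMA), which corrects background, quantile-normalizes arrays and summarises the probes of a set; whether all arrays entered 1 RMA run is not given in the sources used here. Because RMA equalises the arrays, differences are relative to the other transcripts of the same sample. Of 45101 probe sets, 64 controls were left out, and 34945 had 1 gene, 932 several and 9160 none in the platform annotation, with 34741 matched to RefSeq (GRCm38.p6).

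A limma (3.58.1, R 4.3.3) model with 8 group means was fitted to all 42 arrays and 45037 probe sets (34 residual degrees of freedom, 3.58 prior). KO minus WT was called at an unadjusted p under 0.05, other comparisons at a Benjamini-Hochberg adjusted p under 0.05. Intervals are 95%. Exact two-sided permutation tests over arrays cannot go below p = 0.00794 with 5 against 5 or 0.00216 with 6 against 6. Other steps used Python 3.11.15, NumPy 2.4.6, SciPy 1.17.1, pandas 2.3.3 and Matplotlib 3.10.9. The fit was tested on simulated data with independent normal noise and 1 spread per probe set. That test therefore does not cover correlation within litters or unequal spreads between groups. The arrays are separate samples, but nothing says that the pools within a litter are independent, so that p-values measure the spread between these samples, which may in part be technical; the number of arrays limits the precision. The methods describe WT and KO replicates handled in pairs on a day, but the labels name no pair, so KO and WT were compared unpaired. Arrays of 1 litter in different systems share a mouse ID: the deviations of same-litter arrays correlated at -0.12 to 0.58 (median 0.18, 24 of 40 pairs over 0.1), and at 0.25 to 0.52 for the 10 pairs of tissues, and the fits with litter as a replicate block are given with the alternatives.

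The members and gene lists were chosen with earlier results of these data known. All members and Fmr1 were named. All member probe sets were counted and drawn, but some secondary ones are not described one by one. Of 79 other pathway genes, up to 5 with the smallest p among those called and above background in either genotype were named in each KO comparison. The 3 widest in each direction were named in each culture, tissue or region comparison. The 3 genes most like each member were named as well. Some listed genes are not reported here. Alternatives were array centring, repeated quantile normalization, trended and robust variances, array weights, a background filter, other gene counts and thresholds, fits on fewer systems, litter blocks and leaving out each array.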

Additional observations from a re-analysis of the deposited data

Results flagged for a closer look

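Within a group, 1 array stood apart from the others by Dixon's criterion in 5 of the 64 groups of main probe set values, where chance alone gives about 5% of groups. These were Mtor in the primary hippocampus of KO litter 4236 at 8.51 (nearest other array 8.66), Rptor in the same tissue of the same litter at 7.89 (nearest 8.10), Rictor in the primary cortex of KO litter 2037 at 9.27 (nearest 9.06), Rheb in the hippocampal culture of WT litter 3569 at 12.07 (nearest 11.66) and Tsc2 in the hippocampal culture of KO litter 2038 at 7.72 (nearest 7.94).

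A difference of effects between systems was flagged for 3 probe sets, of which only that of Rictor passed after adjustment. The KO effect on Tsc2 differed by -0.27 between hippocampal culture and primary hippocampus, and that on Akt1 probe set 1442759_at by -0.25 between cortical culture and primary cortex, both at an unadjusted limma p only (adjusted p = 0.957 and 0.9998). Of all probe sets, 5.02% in the hippocampal and 4.67% in the cortical comparison passed at an unadjusted p under 0.05. The culture minus tissue difference of Rictor was 0.34 higher in the hippocampus than in the cortex (limma adjusted p = 0.000507).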

How the results depend on the processing

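No result named here changed direction while called under any alternative. KO minus WT: at an adjusted limma p under 0.05, 0 probe sets and 0 genes were called in either culture and over litter means. Fitted on their own arrays alone, 0 genes were called in hippocampal and 0 in cortical culture (with 1 probe set in cortical culture, also 1 with the cultures alone). In hippocampal culture 2 genes were called with median-centred arrays, 2 after quantile normalization and 2 with array weights, against 1; Mtor was gained after quantile normalization (-0.13) and with array weights (-0.13), and Rictor with centred arrays (0.16). In cortical culture 2 genes were called after quantile normalization and 2 with array weights, Tsc2 being gained (-0.21 and -0.20). Counting a gene on its smallest p gave 3 genes in hippocampal and 2 in cortical culture. Such a count rises with the number of probe sets per gene, so the shares of all genes given for main probe sets do not apply to it. Culture and region comparisons: at least 2-fold, 0 probe sets and 0 genes were called in the 4 comparisons and in the difference between regions. Between the tissues 2 probe sets were called with the background filter, and between the cultures 2 with array weights. The difference between regions called 3 probe sets and 2 genes with centred arrays and 2 probe sets with the background filter; centring moved no median by more than 0.0913. At an unadjusted p the KO effect differences called 1 probe set and 1 gene in the hippocampus and 1 probe set in the cortex. Without 1 array, the counts of probe sets and genes ran from 1 to 4 and 1 to 2 in hippocampal culture, 1 to 3 and 1 to 2 in cortical culture, 0 and 0 in primary hippocampus, 0 to 1 and 0 in primary cortex, 15 to 17 and 7 for hippocampal culture against tissue, 13 to 16 and 6 to 7 for the cortical pair, 3 to 5 and 2 between tissues, 3 to 5 and 2 to 3 between cultures, 1 to 3 and 1 for the difference between regions, 3 to 4 and 2 over litter means, and 0 for the KO effect differences. With litter as a random replicate block (estimated correlation 0.0681) the counts for KO minus WT and for the KO effect differences were as without it. They were 3 and 2 probe sets in hippocampal and cortical culture, 0 in either tissue and 0 for the KO effect differences. The system comparisons were instead fitted with litter as a fixed replicate block, which estimates no correlation. Their counts were also as without it: 15 and 16 for culture against tissue, 4 and 4 for the region comparisons and 1 for the difference between regions. No call changed in either fit. With the tissues or cultures fitted alone and litter as a replicate block, chosen after seeing the data, 6 probe sets and 3 genes were called between tissues and 4 and 2 between cultures, with Rheb gained and Mtor lost. The shares over the whole array in these fits are not given here. For single probe sets under settings other than leaving out an array, KO minus WT kept its side of the threshold in 339 values, gained a call in 5 and lost one in 16; the system comparisons kept it in 514, gained 3 and lost 12. Leaving out 1 array kept 525 KO minus WT values, gained 7 and lost 24, and kept 1899 system values and lost 33. The causes were not tested. Signals under 5.16 could not be told from background, which limits the calls on the dim Rptor probe set 1458472_at.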
